A study of Mus musculus with 6 samples.

Results

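Triacylglycerol assembly and glycerol backbone genes are the 10 genes whose enzymes build the storage fat of an adipocyte: Gpam, Agpat9, Agpat2, Lpin1, Lpin2, Lpin3, Dgat1, Dgat2, Gpd1 and Pck1. They were taken by symbol from the authors' deposited table, where each of the 10 had 1 transcript cluster (the array's gene-level probe set) carrying that symbol alone, out of 22206 clusters in all. Agpat9 is the table's older name for Gpat3. No filter on dim signals was applied, so all 10 were tested.

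The arrays came from 3T3-L1, a fibroblast-like line of mouse cells that hormones can turn into fat cells. The first group, Tsuru, holds 3 samples of cells given an extract of Tsuruazuki, and the second, control, holds 3 samples without extract. Per the labels' protocols both were induced after confluence with IBMX, insulin and dexamethasone, moved to insulin medium at day 3 and kept to day 9, although the control titles say only that the cells were maintained in medium. The protocol names dilutions of 1 in 1000 and 1 in 100 of a 100 mg/ml stock, and which of them the arrayed cells received is not stated. All samples come from a single cell line. Whether replicates are separate cultures is not labelled. The p-values therefore set a difference between groups only against the spread between these arrays, and that spread may be technical.

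Triacylglycerol is made on a glycerol backbone that is supplied as glycerol-3-phosphate. Cytosolic glycerol-3-phosphate dehydrogenase (Gpd1) makes it from a glycolytic intermediate, and phosphoenolpyruvate carboxykinase (Pck1) feeds the same intermediate from pyruvate-derived carbon in the pathway called glyceroneogenesis. Glycerol-3-phosphate acyltransferases (Gpam in mitochondria, Agpat9 in the endoplasmic reticulum) add the first fatty acid, Agpat2 adds the next to give phosphatidate, the lipins remove the phosphate, and Dgat1 or Dgat2 adds the last fatty acid. In fat tissue these steps are strongly induced as preadipocytes differentiate, and loss of Agpat2 or of Lpin1 causes lipodystrophy in mice.

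Each value below is a log2 signal after the authors' normalization, a brightness with no unit. Fold changes are differences of log2 signals, Tsuru minus control. Because each gene is read by its own probes, signals are compared between arrays, for a gene or for the average of a list. Bright and dim are rough words, and a difference in brightness between genes is not read as a difference in amount. The array's background sets averaged 4.51 to 4.62 by array, and its negative control sets 5.75 to 6.01. On each array 95% of the negative control sets read below a bound, which ran from 9.37 to 9.88. Array medians ran from 5.43 to 5.59. Control replicate 1 stood apart: its mean correlation with the other arrays was 0.987, the lowest, and 8 interferon response genes averaged 5.64 to 7.36 on the Tsuru arrays, against 9.54 on this control array and 6.03 and 7.25 on the remaining controls. These interferon genes were listed to stand for that array, so they describe it and do not test it. Where leaving control replicate 1 out ended or made the call of a member or a wider pathway gene named below, the value without it is given.

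The cells carried fat cell transcripts in both groups. The 8 adipocyte markers measured (Fabp4, Adipoq, Plin1, Cidec, Lpl, Cd36, Cfd and Lipe) averaged 14.70 to 15.05 on the Tsuru arrays and 14.22 to 14.62 on the control arrays, and all 8 fold changes were positive, from 0.07 for Cidec to 1.09 for Cfd. Cidec was at -0.08 without control replicate 3. Of 6 preadipocyte and fibroblast markers 5 were measured (Dlk1, Thy1, Ly6a, Cd34 and Col1a1), with averages of 11.82 to 11.90 on Tsuru arrays and 11.87 to 12.09 on control arrays. They ran from Cd34, at 4.30 with Tsuru and 4.68 in control, to Dlk1, at 17.37 and 17.35. Col1a1 averaged 16.97 with Tsuru and 16.88 in control. Pdgfra shares its cluster with another symbol and was not used. Macrophage markers averaged 4.75 to 5.01 with Tsuru and 4.74 to 5.35 in control, with Csf1r and Itgam below the background mean on all 6 arrays, and the 4 endothelial markers averaged 3.55 to 3.88 with Tsuru and 3.78 to 3.97 in control. Past the threshold of the study's methods, given with the comparison, were 2 of these 10 macrophage and endothelial markers, both lower with Tsuru. Of all clusters 5.38% were past it and lower. Of the 8 adipocyte markers, Cfd and Plin1 were past it and higher, where 5.75% of all clusters were. Lyz2, the lysozyme gene of macrophages, read 6.43, 5.28 and 4.67 with Tsuru and 7.88, 6.50 and 5.88 in control, above the background mean on all 6 arrays (-1.29 ± 0.52, adjusted p = 0.413, limma, n = 3 each), and was -0.73 and outside the threshold without control replicate 1. Cdh5, an endothelial cadherin gene, averaged 3.33 with Tsuru and 3.92 in control, with no overlap and below the background mean on all 6 arrays (-0.59 ± 0.16, adjusted p = 0.342, limma, n = 3 each). Their part in the members' differences was not tested.

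The comparison of Tsuru with control asks which transcripts differ with the extract at day 9. For these 10 genes, 7 mean signals were higher with Tsuru, where 50.6% of all clusters were, and 3 were lower. The genes with higher means were the 3 acyltransferases, 2 of the 3 lipins, Dgat2 and Gpd1, by 1.33 to 1.47-fold, while Dgat1, Lpin3 and Pck1 had fold changes of -0.18 to -0.02 on the log2 scale. No member passed correction: with limma's moderated test and Benjamini-Hochberg adjustment over all clusters the members' adjusted p ran from 0.352 to 0.976, and 0% of all 22206 clusters were called. At the threshold that the study's methods set, an unadjusted p under 0.05 with a fold over 1.1, 5 members were past it, all higher with Tsuru, where 5.75% of all clusters were past it in that direction. On the lower side 0 members were past it, where 5.38% of all clusters were. The 3 Tsuru arrays all lay above the 3 control arrays for 6 members, where 9.06% of clusters did so, and all below for 0 members, where 7.75% did. The members' median fold change was 0.43, against 0.0039 over all clusters. Brighter clusters leaned higher too: with a mean log2 of at least 6, the median over clusters was 0.10. Of those clusters 992 were past the methods' threshold and higher, and 317 lower. The members that bright, which leaves out Lpin3 and Pck1, had a median of 0.45. Without control replicate 1, or without any one of the Tsuru arrays, the count past the methods' threshold was 3 members. Subtracting each array's median made it 7, and with that scaling 72.6% of all clusters past the threshold were higher, against 51.7% as reported. The members were chosen with earlier results of these data known, so these counts describe the genes and do not test them as a set.

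**Figure D1:**
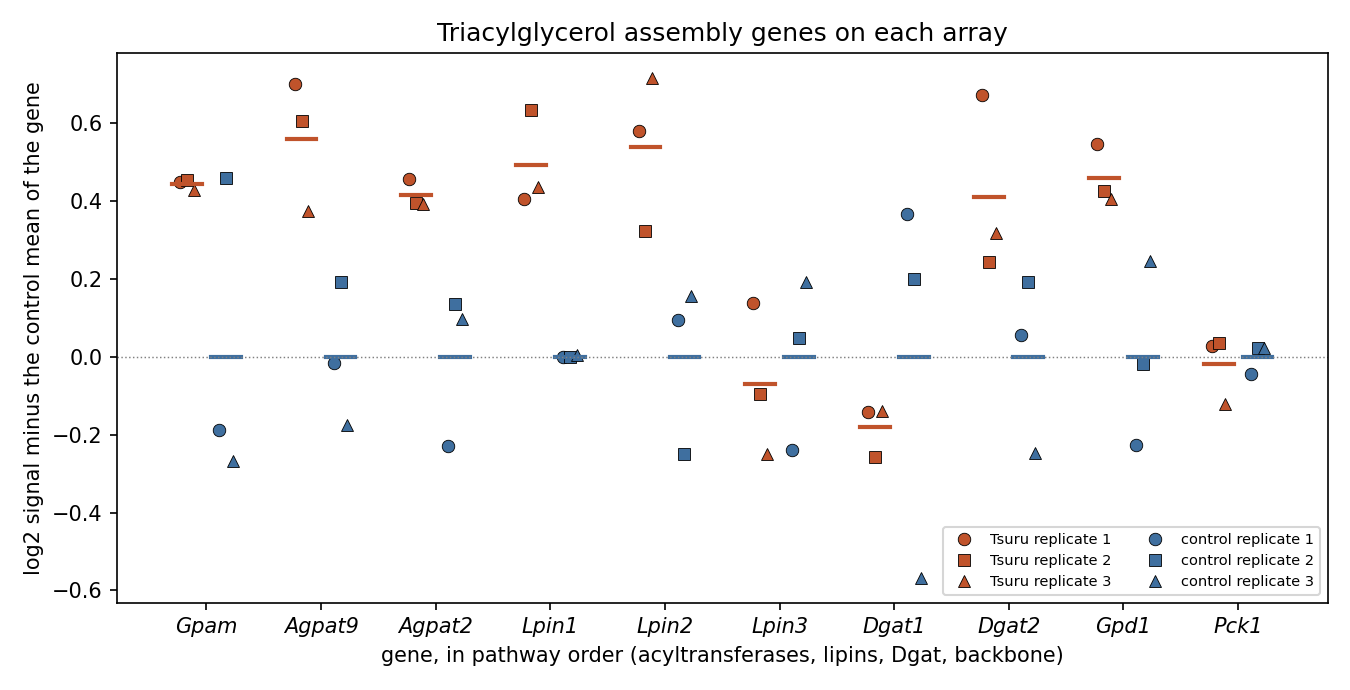
Log2 signal of each of the 10 genes on each array, given as the difference from that gene's control mean (vertical axis, log2), with genes in pathway order along the horizontal axis. Orange points are Tsuru arrays and blue points control arrays, marker shapes give the replicate number and short bars the group means. Agpat9, Agpat2, Lpin1, Lpin2, Dgat2 and Gpd1 have all 3 Tsuru points above all 3 control points, while Gpam is overlapped by control replicate 2 and Dgat1 has control points on both sides of the Tsuru points.

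Promoter sequence is shown for 3 genes: the 2 members with the lowest p-values, Agpat9 and Lpin1, and Pck1, the member whose mean differed least. This choice was made after their values were seen. The windows run from 250 bases before to 50 bases after the gene start in RefSeq's annotation of GRCm38.p6, and a window was found for 7 of the 10 members, 11 windows in all. None was used for Dgat1, Dgat2 or Gpd1. The sources used here name no build for the array's clusters. Capitals mark the letters AGGTCA, the core element that nuclear receptors such as PPAR gamma recognise. The windows lie at chr5:100845979-100846278 on the plus strand for Agpat9, chr12:16610917-16611216 on the minus strand for Lpin1 and chr2:173152823-173153122 on the plus strand for Pck1, each printed 5′ to 3′ in the direction of the gene.
Agpat9: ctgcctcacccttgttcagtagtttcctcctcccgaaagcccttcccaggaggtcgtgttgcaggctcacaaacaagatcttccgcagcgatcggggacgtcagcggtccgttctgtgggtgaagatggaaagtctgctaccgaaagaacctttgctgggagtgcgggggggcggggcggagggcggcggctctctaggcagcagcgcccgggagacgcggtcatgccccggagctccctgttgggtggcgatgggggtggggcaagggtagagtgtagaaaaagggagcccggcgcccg
Lpin1: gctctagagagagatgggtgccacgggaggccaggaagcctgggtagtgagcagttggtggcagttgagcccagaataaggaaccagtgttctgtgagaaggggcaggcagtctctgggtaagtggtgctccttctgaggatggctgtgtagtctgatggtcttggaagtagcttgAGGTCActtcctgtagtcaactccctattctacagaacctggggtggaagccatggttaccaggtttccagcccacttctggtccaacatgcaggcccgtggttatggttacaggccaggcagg
Pck1: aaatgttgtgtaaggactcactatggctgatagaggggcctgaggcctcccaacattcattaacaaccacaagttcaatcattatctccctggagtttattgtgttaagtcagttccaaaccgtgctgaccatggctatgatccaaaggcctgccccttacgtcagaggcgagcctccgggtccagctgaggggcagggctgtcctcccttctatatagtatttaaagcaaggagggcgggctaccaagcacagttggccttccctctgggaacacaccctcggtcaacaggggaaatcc

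Both strands of every promoter window in the table, 32851 of the same length, were searched for 4 short motifs and 1 pair. AGGTCA was present in 2 of the 11 member windows, that of Lpin1 at position -74 and 1 of the 2 Gpam windows at -196, and in 16.3% of all windows. A direct repeat of AGGTCA with 1 base between the copies, which contains that element, was in 0 member windows and in 0.0396% of all. The E-box CACGTG was in 2 member windows, of Lpin2 and Lpin3, and in 7.15% of all. The CCAAT box was in 2 member windows, of Gpam and Lpin2, and in 37.4% of all. The letters TGACGTCA of the cyclic AMP response element were in 0 member windows and in 1.79% of all. No matches of different motifs overlapped in these windows. The Agpat9 and Pck1 windows held no exact match. Only exact letters were searched, so a window without a match can still hold a variant of a motif. The Pck1 window holds ttacgtca, the Agpat9 window ggacgtca and the Gpam window with AGGTCA cgacgtca, each 1 base away from TGACGTCA. Such variants were not searched for over all windows, so their share there is unknown and nothing is concluded from them.

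Among the acyltransferases, Agpat9 had the member list's largest fold change and its lowest p. Its signals were 10.25, 10.15 and 9.92 on Tsuru arrays 1 to 3, against 9.53, 9.74 and 9.37 on control arrays 1 to 3. Every Tsuru array was above every control array, with Tsuru replicate 3 and control replicate 2 the nearest to each other. The fold change was 0.56 ± 0.18 (SE, n = 3 each), or 1.47-fold, with adjusted p = 0.352 in limma's test. Agpat9 stayed past the methods' threshold in each of the 16 alternatives run, with fold changes from 0.43 to 0.65.

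Agpat2, which acylates lysophosphatidate, was bright and tight in treated cells. It read 13.21, 13.15 and 13.15 on the Tsuru arrays, a standard deviation of 0.04, and 12.53, 12.89 and 12.85 on the control arrays, a standard deviation of 0.20. The groups did not overlap, and control replicate 1 was the lowest array. The fold change of 0.41 ± 0.17 (SE, n = 3 each; adjusted p = 0.414, limma) became 0.30 without control replicate 1, and was then no longer past the methods' threshold. It was also outside it without Tsuru replicate 1, 2 or 3, at 0.39, 0.42 and 0.42, and with quantile normalization and cyclic loess, at 0.31 in both. Agpat2 was past the threshold in 9 of 16 alternatives.

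Gpam, the mitochondrial glycerol-3-phosphate acyltransferase, differed from Agpat9 and Agpat2 in how its control arrays were spread. It read 10.57, 10.58 and 10.56 in the Tsuru samples, against 9.94, 10.58 and 9.86 in the control samples. The 3 Tsuru values were nearly equal, with a standard deviation of 0.013, while control replicate 2 lay at the Tsuru level and the other controls well below it. The fold change was 0.44 ± 0.21 (SE, n = 3 each; adjusted p = 0.469, limma), not past the methods' threshold. With control replicate 2 left out it was 0.67 and past that threshold, and with control replicate 3 left out it was 0.31.

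The lipins turn phosphatidate into diacylglycerol, and Lpin1 is the isoform best known from fat tissue. Lpin1 read 11.96, 12.19 and 11.99 on the Tsuru arrays, against 11.55, 11.55 and 11.56 on the control arrays. The controls were almost identical, with a standard deviation of 0.0028, and all Tsuru arrays lay above them. Lpin1 differed by 0.49 ± 0.16 (SE, n = 3 each; adjusted p = 0.353, limma). Lpin1 was past the methods' threshold in 16 of 16 alternatives, between 0.37 and 0.57, and was 0.49 without control replicate 1. The moderated error is 0.16 because limma draws each gene's spread toward that of all clusters.

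Lpin2, a second isoform, read 8.16, 7.90 and 8.30 in treated cells (Tsuru), against 7.68, 7.33 and 7.74 in control cells. All 6 values lay above the mean of the negative control sets but under the bound that held 95% of them. The groups did not overlap, but replicate 2 was the lowest array in each. Lpin2 differed by 0.54 ± 0.19 (SE, n = 3 each; adjusted p = 0.374, limma), and it was past the methods' threshold in 14 of 16 alternatives. The exceptions were the fits without Tsuru replicate 3, at 0.45, and without control replicate 2, at 0.41.

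Lpin3, the third isoform, was dim. It read 5.28, 5.04 and 4.89 with Tsuru, against 4.90, 5.19 and 5.33 in control. All 6 values lay below the mean of the negative control sets and above that of the background sets, and the groups overlapped throughout. The fold change of -0.07 had a 95% interval from -0.48 to 0.35, and at this brightness it is not exact.

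At the last acylation the fold changes of the 2 diacylglycerol acyltransferase genes had opposite signs. Dgat2 read 9.77, 9.34 and 9.42 with Tsuru and 9.16, 9.29 and 8.85 in control. All Tsuru arrays were above all control arrays, though Tsuru replicate 2 exceeded control replicate 2 only narrowly. The fold change was 0.41 ± 0.19 (SE, n = 3 each; adjusted p = 0.464, limma), outside the methods' threshold, and became 0.28 without Tsuru replicate 1 and 0.51, past the threshold, without control replicate 2.

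Dgat1, an enzyme unrelated in sequence to Dgat2, read 9.96, 9.85 and 9.96 in the Tsuru samples, against 10.47, 10.30 and 9.54 in the control samples. The Tsuru values were close together, with a standard deviation of 0.07, and lay between control replicate 3 and the other controls, whose standard deviation was 0.50. The fold change was -0.18 ± 0.24 (SE, n = 3 each; adjusted p = 0.809, limma). Its size depended on single controls: it was -0.46 without control replicate 3, past the methods' threshold and lower with Tsuru, and 0.0035 without control replicate 1.

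Whether genes of the same enzymatic step changed unequally was tested on the difference of their log2 signals within each array, for 3 pairs chosen after the values were seen. The difference Dgat2 minus Dgat1 was higher by 0.59 with Tsuru than in control, and its 3 Tsuru values all exceeded its 3 control values. The two-sided exact permutation test gave p = 0.1, the smallest possible with 3 against 3 arrays, and 0.3 after adjustment over the 3 pairs. For Lpin2 minus Lpin1 the change was 0.05 (exact p = 0.7, adjusted 0.7), and for Agpat9 minus Gpam it was 0.12 (exact p = 0.6, adjusted 0.7). The design cannot place any of these below 0.1, and the adjustment does not cover the choice of the pairs, so no conclusion is drawn.

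Of the backbone enzymes, Gpd1 was bright while Pck1 was near background. Gpd1 read 12.99, 12.87 and 12.85 in treated cells (Tsuru), against 12.22, 12.43 and 12.69 in control cells. The groups did not overlap, with control replicate 3 the nearest to the Tsuru arrays. Gpd1 differed by 0.46 ± 0.18 (SE, n = 3 each; adjusted p = 0.409, limma), past the methods' threshold in 11 of 16 alternatives. Leaving out control replicate 1 or 2 gave 0.35 and 0.45, both outside it, and leaving out Tsuru replicate 1 or 2 gave 0.41 and 0.48, outside it as well, as was 0.35 with cyclic loess.

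Pck1 read 4.91, 4.91 and 4.76 with Tsuru, against 4.83, 4.90 and 4.90 in control. Every value was below the mean of the negative control sets and above that of the background sets, and the groups overlapped. Its fold change was -0.02 with a 95% interval from -0.37 to 0.33. The mitochondrial isoform Pck2, which was well above those sets, averaged 10.78 ± 0.25 with Tsuru and 10.86 ± 0.23 in control (SD, n = 3 each), a fold change of -0.07 (adjusted p = 0.918, limma).

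**Figure D2:**
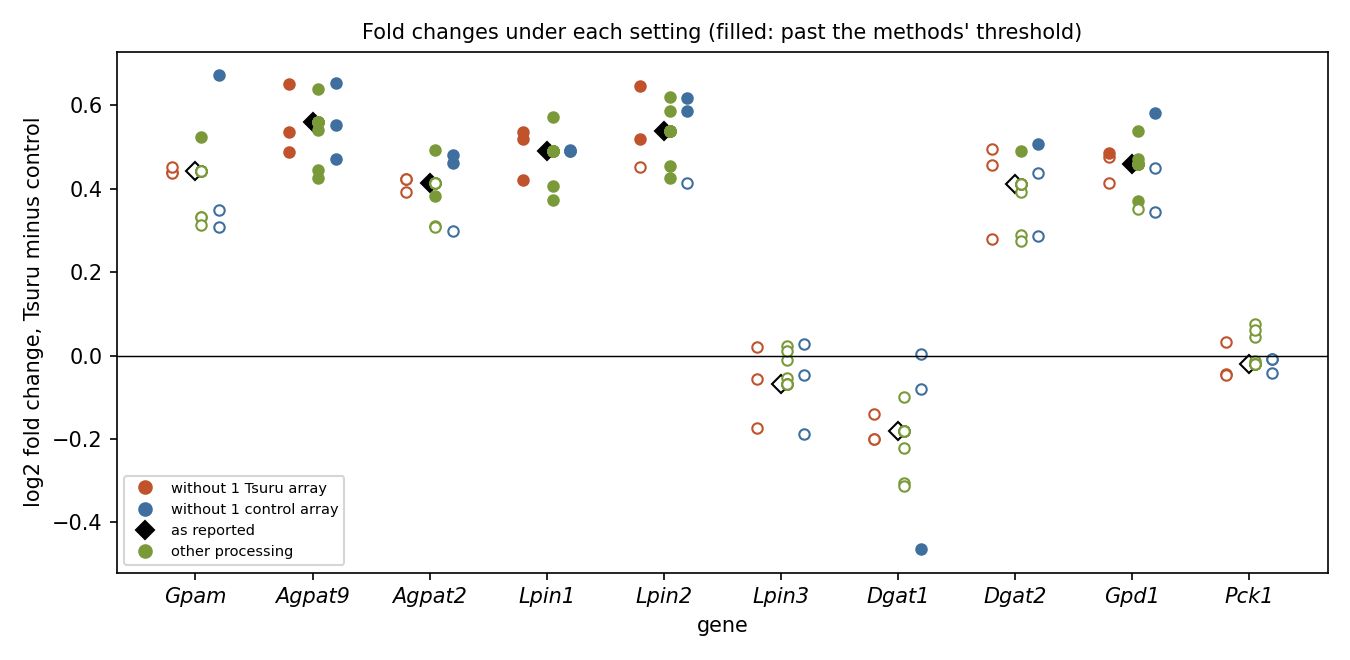
Log2 fold change of each gene, Tsuru minus control (vertical axis), as reported (black diamonds), in fits that leave out 1 Tsuru array (orange) or 1 control array (blue), and under the other processing alternatives (green). Filled symbols are past the methods' threshold: Agpat9 and Lpin1 are filled throughout, Gpam and Dgat2 in 2 alternatives each, and Dgat1 in 1, at -0.46.

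Array by array, the 10 genes ordered the groups without overlap. Their mean deviation from the 6-array mean was 0.23, 0.12 and 0.10 on Tsuru arrays 1 to 3 and -0.20, -0.06 and -0.21 on control arrays 1 to 3. The adipocyte markers deviated by 0.38, 0.27 and 0.02 on the same Tsuru arrays and by -0.16, -0.05 and -0.45 on the controls. Both lists were thus highest on Tsuru replicate 1 and lowest on control replicate 3, with control replicate 2 the highest control. The part of this shared order in the members' differences was not tested, and in bulk RNA more cells that had become adipocytes and more RNA per cell cannot be told apart. Preadipocyte and fibroblast markers deviated by -0.09 to -0.01 on Tsuru arrays and -0.04 to 0.18 on control arrays. The interferon genes, at 2.42 on control replicate 1, did not follow this order. Groups without overlap were also seen in lists of the wider pathway, described next. The acyltransferases outside the members deviated by 0.06 to 0.11 on Tsuru arrays and -0.16 to 0.02 on control arrays. The lipin control list was also higher on every Tsuru array, though narrowly, and the droplet biogenesis list was lower on every one. The remaining wider lists overlapped.

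**Figure D3:**
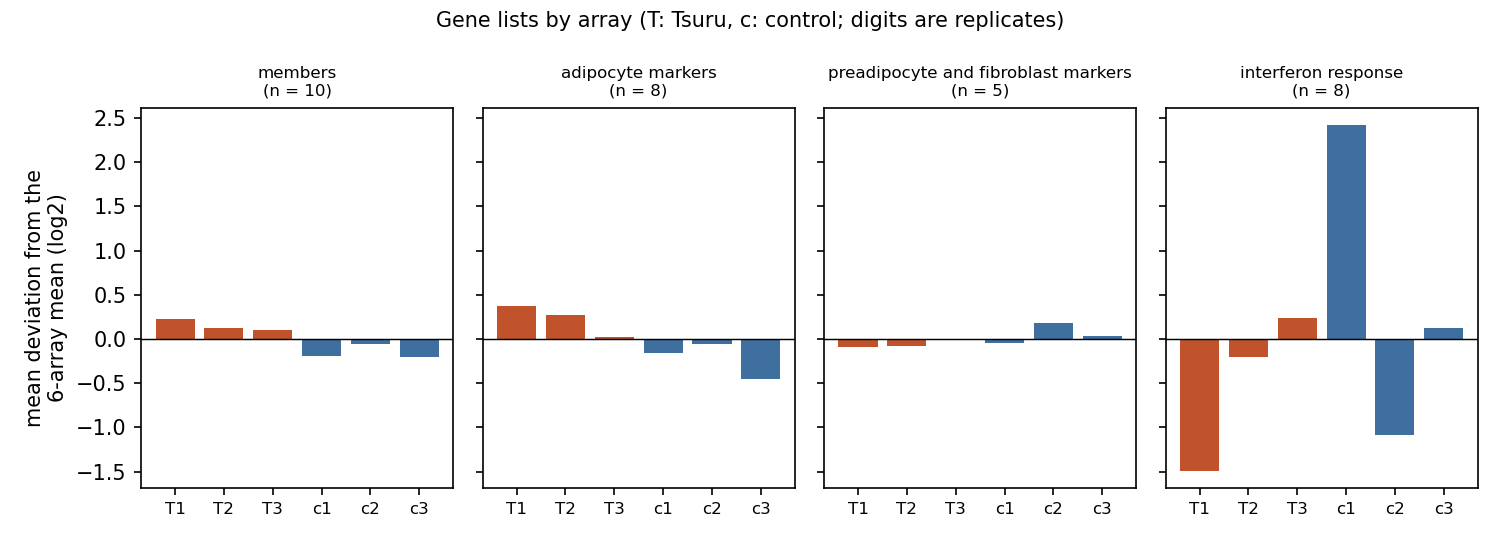
Mean deviation of 4 gene lists from their 6-array means (vertical axis, log2) on each array, with Tsuru replicates 1 to 3 in orange (T1 to T3) and control replicates 1 to 3 in blue (c1 to c3). The 10 members and the 8 adipocyte markers are positive on all Tsuru arrays and negative on all control arrays, and the interferon response list stands at 2.42 on control replicate 1.

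The wider pathway was read from 46 further genes, 45 of which had a cluster of their own. Of these, 5 were past the methods' threshold and higher with Tsuru, or 11.1%, beside the 5.75% of all clusters, and 0 were lower. All 5 had a mean log2 of at least 6, and clusters that bright leaned the same way. Of them 992 were past the threshold and higher, and 317 lower. The wider list's higher count was 3 without any one Tsuru array or without control replicate 1, and 8 without control replicate 3. None reached an adjusted p under 0.05, and the median fold change was 0.04. The other 40 had fold changes from -0.30 to 0.41. Srebf1 shares its cluster with another symbol and was not used.

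Outside the members, 1 of 9 acyltransferase genes was past the threshold. Agpat5, a member of the lysophosphatidate acyltransferase family found in mitochondria, read 8.85, 8.93 and 9.07 in the Tsuru samples, against 8.37, 8.08 and 8.21 in the control samples. All 6 values lay above the mean of the negative control sets but under the bound that held 95% of them. The groups were well apart, and the fold change of 0.73 ± 0.17 (SE, n = 3 each; adjusted p = 0.341, limma) was past the methods' threshold in 16 of 16 alternatives. Agpat1, the widely expressed enzyme of the step that Agpat2 catalyses, differed by -0.10 ± 0.19, and Gpat4 (listed as Agpat6 in older tables), a glycerol-3-phosphate acyltransferase of the endoplasmic reticulum, by 0.19 ± 0.18.

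The lipin control genes are those of the phosphatase that removes phosphates from lipins, to which Hilpda, a lipid droplet protein gene, had been added. Cnep1r1, the regulatory subunit, read 11.16, 11.50 and 10.72 in treated cells (Tsuru), against 10.77, 10.12 and 10.53 in control cells. The groups overlapped between Tsuru replicate 3 and control replicate 1, and the fold change was 0.65 ± 0.24 (SE, n = 3 each; adjusted p = 0.396, limma). Ctdnep1, the catalytic subunit, differed by -0.21 ± 0.19. Cnep1r1 fell outside the threshold, at 0.63, 0.46 and 0.47, when Tsuru replicate 1 or 2 or the second control was left out. It was also outside with quantile normalization and cyclic loess, at 0.54 and 0.52, and in a fit without empirical Bayes, leaving 10 of 16 alternatives past it.

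In glycerol handling, 2 of 8 genes were past the threshold. Pcx, the pyruvate carboxylase that supplies oxaloacetate for glyceroneogenesis, read 14.41, 14.28 and 14.43 with Tsuru and 13.70, 14.12 and 13.87 in control, without overlap (0.48 ± 0.17, adjusted p = 0.385, limma, n = 3 each). Gk5, a gene of the glycerol kinase family, read 10.06, 10.04 and 10.23 with Tsuru and 8.83, 9.82 and 9.68 in control, with control replicate 1 far below the rest (0.67 ± 0.25, adjusted p = 0.401, limma, n = 3 each). It was 0.36 and outside the threshold without that array, and 0.61 and outside it without Tsuru replicate 3, and a fit without empirical Bayes also put Gk5 outside. Pcx was at 0.38, 0.46 and 0.45, outside the threshold, without control replicate 1, Tsuru replicate 1 and Tsuru replicate 3. The glycerol kinase gene itself (Gk) differed by 0.05 ± 0.18, the glycerol channel gene Aqp7 by 0.20 ± 0.18 and Gpd2, the mitochondrial glycerol-3-phosphate dehydrogenase, by 0.20 ± 0.24. Single arrays shifted these differences: without control replicate 1 Gpd2 was at -0.05, Gk at -0.04 and Aqp7 at 0.11, and without control replicate 3 Gpd2 was at 0.41. Without Tsuru replicate 2 Gk was at 0.17, and without Tsuru replicate 1 Aqp7 was at 0.30.

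Of 4 droplet biogenesis genes 0 passed, and Bscl2, the seipin gene, averaged 5.16 with Tsuru and 5.18 in control, below the negative control mean on all 6 arrays. Fitm1 and Tmem159 (the gene now called Ldaf1) were below the background mean on all 6, so their fold changes say little. Of 10 regulators 0 passed. Pparg, the nuclear receptor that drives adipogenesis, read 14.27, 13.88 and 14.38 with Tsuru, against 14.29, 14.37 and 13.98 in control, and its fold change of -0.03 had a 95% interval from -0.47 to 0.40. Cebpa, its partner factor, differed by 0.30 ± 0.22, and was at 0.51 and past the threshold without control replicate 1 and at 0.08 without control replicate 3. Usf1, an E-box factor named after its values were seen, was the 1 of 45 wider genes with all Tsuru arrays below all control arrays. Of all clusters 7.75% were so placed. For 4 of the 45 all Tsuru arrays lay above all control arrays, beside 9.06% of all clusters. Usf1 read 9.02, 9.08 and 9.00 with Tsuru and 9.30, 9.24 and 9.43 in control, and was not past the threshold (-0.30 ± 0.16, adjusted p = 0.507, limma, n = 3 each). Usf1 was past it, and lower, in 3 of 16 alternatives: the fit without empirical Bayes, quantile normalization and cyclic loess. Of 11 genes that use phosphatidate or diacylglycerol for other ends, 1 passed: Plpp2, a lipid phosphate phosphatase gene, with 8.29, 8.77 and 8.08 in the Tsuru samples, against 7.53, 8.15 and 7.60 in the control samples. Its groups overlapped at control replicate 2 (0.62 ± 0.24, adjusted p = 0.404, limma, n = 3 each). On all 6 arrays Plpp2 lay under the bound that held 95% of the negative control sets. Plpp2 fell outside the threshold, at 0.42, 0.50 and 0.54, in the fits that dropped Tsuru replicate 2, the first control and the third control. It was also outside with quantile normalization and cyclic loess, at 0.53 and 0.50, and in the fit without empirical Bayes.

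**Figure D4:**
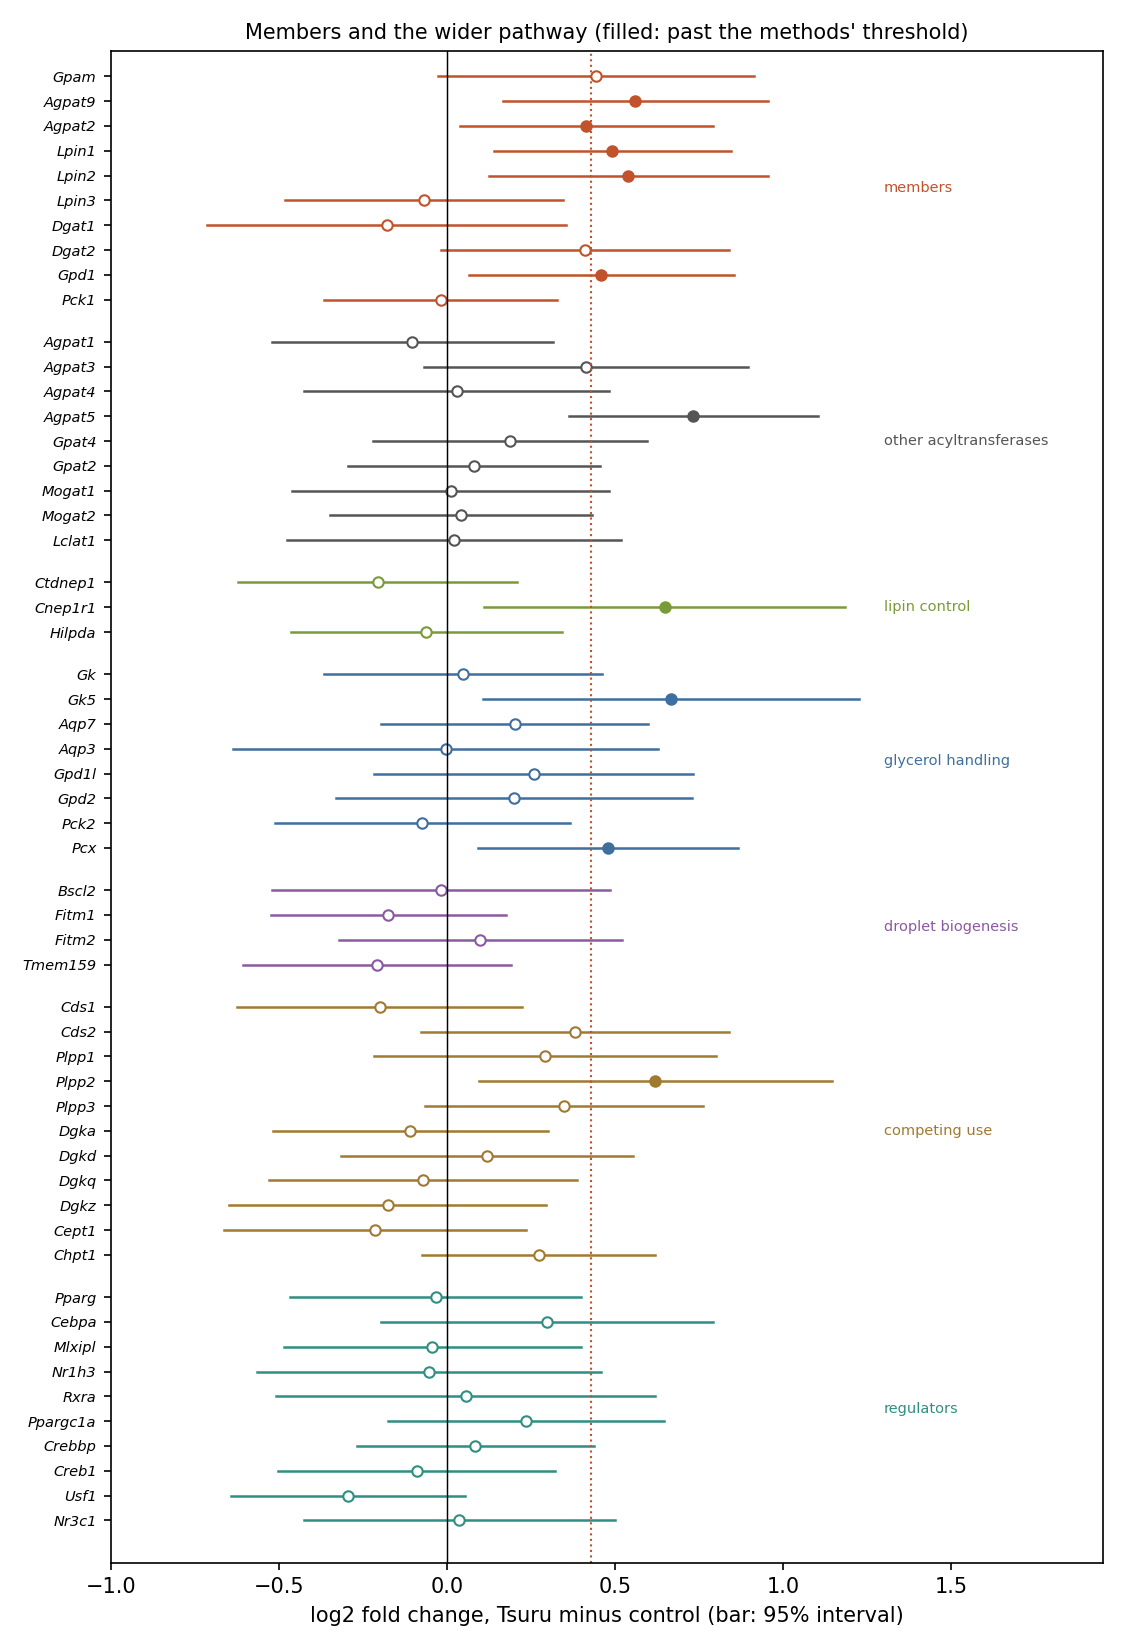
Log2 fold change, Tsuru minus control (horizontal axis), with its 95% interval for each of the 10 members and the 45 wider pathway genes (vertical axis, by group). Filled points are past the methods' threshold, and the dotted line marks the members' median of 0.43: 7 members lie near that line, while the regulator genes run from -0.30 for Usf1 to 0.30 for Cebpa.

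The authors' deposited table gave the same 5 members past the methods' threshold, with signed folds of 1.81 for Agpat9, 1.32 for Agpat2, 1.38 for Lpin1, 1.53 for Lpin2 and 1.44 for Gpd1. Of all clusters in the authors' deposited table, 6% were past it and higher. The authors' deposited table put Gpam at 1.63 and Dgat1 at -1.5, further from no change than the means of the arrays, which gave 1.36 and 0.883. Its group averages differ from the means of the deposited arrays: for Agpat9 they are 10.35 with Tsuru and 9.49 in control in the authors' deposited table, where the arrays average 10.11 with Tsuru and 9.55 in control. The 10.35 lies above all 3 Tsuru arrays, of which the highest read 10.25. For Gpam the authors' Tsuru average of 10.71 lies above the highest Tsuru array, at 10.58. Neither is thus an average of the deposited values, while both control averages lie within their arrays' range. The cause was not tested.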

How the data were processed

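Transcript levels come from 6 Clariom S arrays for mouse, 3 per group, grouped and numbered from the sample titles. The deposited value table holds log2 signals that the authors made with SST-RMA in Transcriptome Analysis Console 4.0.2, per the series design text. The p-values, FDR p-values and signed linear fold changes in the authors' deposited table were computed by one-way ANOVA and an empirical Bayes step, per the same text, which calls a gene at an unadjusted p under 0.05 and a fold over 1.1. Of the values, 6640 control sets were left out, and 22206 clusters were compared, Tsuru minus control, in limma 3.58.1 (lmFit, eBayes; R 4.3.3), with Benjamini-Hochberg adjustment. The number of arrays limits the precision, and log2 fold changes had a median standard error of 0.195. Any pair of arrays had at most 8 values in common. Every member and wider gene past the methods' threshold was to be named, with 9 fixed others. Members and lists were chosen with earlier results of these data known. A sheet named for signals holds sample descriptions, and a filtered list repeats rows of the authors' table. Neither was used.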

Additional observations from a re-analysis of the deposited data

How the results depend on the processing

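The 16 alternatives changed the variance model, array weights, normalization between arrays, filters, clusters per gene, the replicate block or the arrays used. Of the members' fold changes under them, 130 kept their direction and side of the methods' threshold, 14 fell short of it, 5 passed it and 9 changed sign. The sign changes concerned genes not past it: Lpin3 at 0.023 (quantile normalization), 0.011 (array medians subtracted) and between -0.19 and 0.027 without 1 array, Pck1 at 0.075 (quantile normalization), 0.045 (cyclic loess), 0.061 (array medians subtracted) and between -0.047 and 0.032 without 1 array, and Dgat1 between -0.46 and 0.0035 without 1 array. The count of members past it and higher was 3 with cyclic loess and 3 to 5 without 1 array, and the count lower was 0 to 1 without 1 array, as was the count of members lying wholly below control. In the wider list 3 genes were higher and 1 lower with an ANOVA without empirical Bayes, with quantile normalization and with cyclic loess, and 3 to 8 were higher without 1 array. The lower gene was Usf1 in each. The ANOVA lost Cnep1r1, Gk5 and Plpp2 and gained Chpt1, and both normalizations lost Cnep1r1 and Plpp2. Over all clusters 2026 were higher and 766 lower with medians subtracted. The filter at a mean log2 of 6 left 992 higher and 317 lower. Without 1 array 797 to 1845 clusters were higher. At an adjusted p under 0.05 there were 0 to 25 clusters, the 25 without control replicate 3. The within-array differences ranged from -0.077 to 0.23 for Lpin2 minus Lpin1 and from -0.018 to 0.20 for Agpat9 minus Gpam without 1 array. Same-numbered arrays deviated together at r = 0.0020, 0.0059 and 0.19 across clusters, so the numbers were not taken to pair the samples. With the replicate block 4 members were past the threshold, Agpat2 falling short with its fold change still 0.41. Dim signal limits Lpin3 and Pck1. Lpin2 was above the bound that held 95% of the negative control sets on 0 arrays, Dgat2 on 1 and Agpat9 on 4. Lpin3 and Pck1 were also above it on 0 arrays, and Gpam, Agpat2, Lpin1, Dgat1 and Gpd1 on all 6. The cause of these changes was not tested.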
